A study of Mus musculus with 10 samples.

Results

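A set of 10 genes that handle vitamin A or respond to it was followed in sorted ileal epithelial cells of mice: Rbp2, Lrat, Rdh7, Dhrs3, Bco1, Aldh1a1, Isx, Rara, Rarg and Rxra. They were taken by symbol from a count table of 13932 genes, and all 10 were listed and passed the filter on low counts. Total RNA, after removal of ribosomal RNA, was sequenced from live CD45-, EpCAM+ cells of the ileum, 400000 cells per mouse and 1 library per mouse. The dIEC group held 5 mice that carried H2-Ab1 fl/fl and Villin:Cre+ (males dIEC 1, 3 and 5, females dIEC 7 and 9). The WT group held 5 mice that carried H2-Ab1 fl/fl and Villin:Cre- (males WT 2, 4 and 6, females WT 8 and 10). The text of the series names Cre- for both genotypes, and the sample labels were followed here. All 10 mice carried the floxed H2-Ab1 gene, which encodes the beta chain of an MHC class II molecule. The Villin promoter drives Cre in the intestinal epithelium, and because WT mice lacked Cre, its presence and the loss of H2-Ab1 cannot be told apart. The age of the mice is not given in the sources used here.

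Vitamin A reaches the intestine as retinyl esters and as carotenoids. Enterocytes take up retinol and carotenoids, bind retinol to a small carrier protein, esterify it and pack the esters into chylomicrons, while part of it is oxidised through retinal to retinoic acid. Retinoic acid binds nuclear receptors of the RAR family, which act on DNA together with an RXR partner, and in the intestine it feeds back on uptake through the homeobox factor Isx.

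The libraries held 9174101 to 13484363 counts. H2-Ab1 averaged 2.14 ± 0.96 CPM (counts scaled to library totals) in dIEC and 208 ± 117 CPM in WT (SD, n = 5 each). The groups did not overlap, and the log2 fold change was -6.39 (SE 0.51). All 8 listed epithelial markers were present, at a summed 9162 to 16676 CPM in dIEC and 9118 to 12762 CPM in WT. Of the 14 leukocyte markers 4 were listed, at a summed 12.1 to 20.2 CPM in dIEC and 9.14 to 18.1 CPM in WT. Of the 11 markers of stroma and endothelium 3 were listed, at a summed 6.13 to 11.5 CPM in dIEC and 4.75 to 8.004 CPM in WT. Every gene listed reached at least 10 counts in some library, so a marker not listed may still be present at lower counts. The libraries differed within both genotypes in RNA markers of dividing and of mature cells. The proliferation score, the mean log2 CPM of 26 cell cycle genes, ran between 2.94 in dIEC 7 and 5.57 in dIEC 9, and between 3.24 in WT 10 and 5.12 in WT 2.

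Per kilobase of exon, Rbp2 RNA was the most abundant of the 10, and Rarg RNA the least. Rbp2 stood at a median of 1018 CPM per kb over the 10 libraries (346 to 2171). Isx followed at 92.5 CPM per kb (83.1 to 117), Rdh7 at 80.8 (59.0 to 155) and Aldh1a1 at 64.1 (40.5 to 127). The middle of the order was held by Rxra at 35.1 CPM per kb (26.4 to 52.6), Dhrs3 at 23.4 (17.8 to 30.2) and Rara at 12.6 (8.02 to 19.0). Lrat stood at 6.16 CPM per kb (4.52 to 9.37), Bco1 at 5.60 (1.25 to 27.7) and Rarg at 0.713 (0.295 to 1.23). Neighbours in this order overlapped in their 10 library values except Rbp2 over Isx and Bco1 over Rarg. The order is a description, since it rests on annotated exon lengths and on the expressed isoforms being those annotated.

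**Figure D1:**
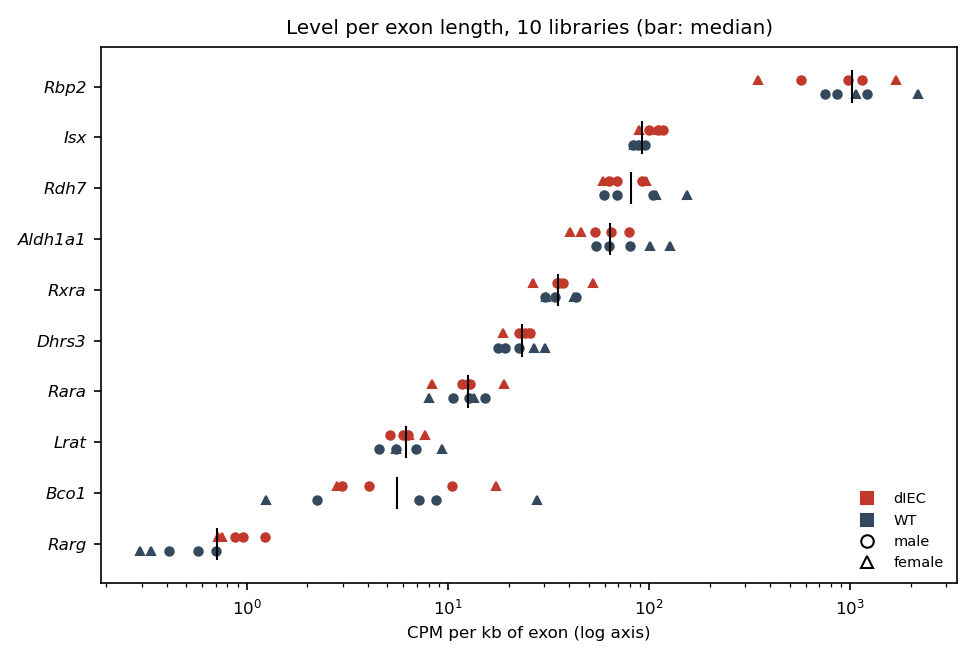
Level of each gene in CPM per kb of exon (log axis), one point per library, dIEC and WT in separate colours. Rbp2 lies above every other gene in all 10 libraries, and Rarg is lowest.

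None of the 10 genes passed the test between dIEC and WT mice, an edgeR quasi-likelihood test on genotype with sex as a term and Benjamini-Hochberg adjustment over 12477 genes. Over all genes tested, 2 passed, H2-Ab1 among them, which is 0.0160%. The log2 fold changes of the 10 genes, dIEC over WT, ran between -0.56 for Aldh1a1 and 1.001 for Rarg, with 5 above 0 and 5 below 0. Their median was 0.0058, against 0.013 over all genes tested. Each adjusted p of the 10 was 0.9999. At an unadjusted p under 0.05 there was 1 of the 10, Rarg, where 2.85% of all genes tested fell, and DESeq2 gave 3 of the 10 at that level, where it put 4.09% of all genes tested. In these bulk samples, fewer cells of a type and less RNA per cell cannot be told apart.

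**Figure D2:**
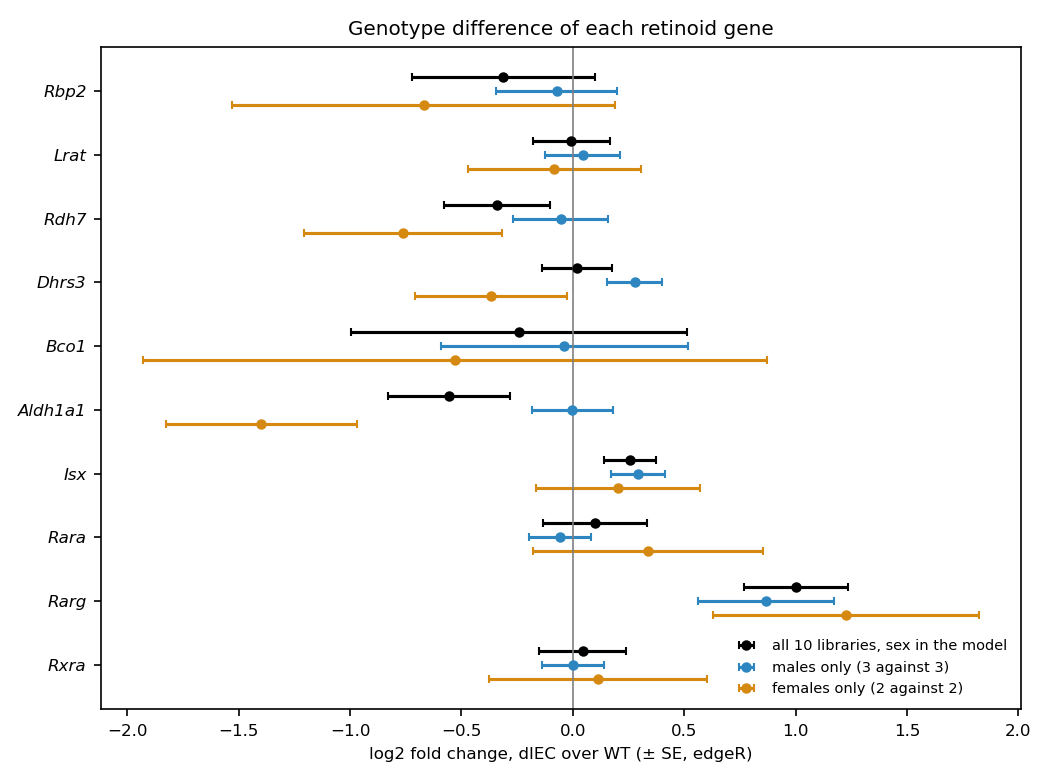
Log2 fold change of each gene, dIEC over WT, with its standard error, from edgeR fits across 12477 genes. Separate colours show all 10 libraries with sex as a term, males only (3 against 3) and females only (2 against 2). With all 10 libraries Rarg lies at 1.001, Isx at 0.26 and Aldh1a1 at -0.56. In none of the fits did a gene shown pass the adjusted threshold of 0.05. In females only no gene of the whole table passed, not even the deleted H2-Ab1, so that fit could miss large differences.

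Among the receptors, Rarg gave the largest difference of the 10 and the lowest level. Rarg (ENSMUSG00000001288; GRCm38 chromosome 15, 102234938 to 102257517, minus strand) encodes retinoic acid receptor gamma. Its level was 5.23, 3.70, 4.09, 3.22 and 3.07 CPM in dIEC 1, 3, 5, 7 and 9, against 1.75, 3.01, 2.43, 1.42 and 1.26 CPM in WT 2, 4, 6, 8 and 10. Every dIEC library lay above every WT library, though the lowest dIEC value and the highest WT value nearly met. Behind these levels stood 50, 44, 48, 28 and 50 reads in dIEC, and 21, 25, 31, 17 and 14 reads in WT. Rarg averaged 3.86 ± 0.87 CPM in dIEC and 1.97 ± 0.73 CPM in WT (SD, n = 5 each). The log2 fold change was 1.001 (SE 0.23, edgeR unadjusted p = 0.00148, adjusted p = 0.9999). Rarg was the 1 member of 10 whose groups did not overlap, and 0.313% of all genes tested did not overlap either, 0.176% with dIEC higher and 0.136% with dIEC lower. With the totals scaled by library size alone, dIEC 7 at 2.61 CPM lay under WT 4 at 2.64 CPM, so that Rarg then overlapped.

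Rara and Rxra, the receptors with the higher levels, gave log2 fold changes near 0. Rara (ENSMUSG00000037992; chromosome 11, 98927818 to 98974942, plus strand) encodes retinoic acid receptor alpha and averaged 56.2 ± 16.9 CPM in dIEC and 52.5 ± 12.3 CPM in WT (SD, n = 5 each). Its log2 fold change was 0.099 (SE 0.23, edgeR unadjusted p = 0.680). Rxra (ENSMUSG00000015846; chromosome 2, 27676440 to 27762957, plus strand), the common partner of the RARs, averaged 203 ± 52.0 CPM in dIEC and 197 ± 34.2 CPM in WT, a log2 fold change of 0.044 (SE 0.20, edgeR unadjusted p = 0.827). For Rara and Rxra alike, dIEC held both the highest library, dIEC 7 at 82.8 and 287 CPM, and a low one, dIEC 9 at 36.1 and 144 CPM. Per kilobase, Rara RNA exceeded Rarg RNA 10.2-fold to 25.1-fold in dIEC and 21.7-fold to 45.9-fold in WT, ranges that overlapped.

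The 2 genes of retinol binding and esterification overlapped between the genotypes. Rbp2 (ENSMUSG00000032454; chromosome 9, 98486115 to 98509781, plus strand) encodes the cellular retinol-binding protein of enterocytes. It stood at 547, 935, 1099, 1624 and 333 CPM in dIEC 1, 3, 5, 7 and 9, against 720, 1170, 826, 1023 and 2089 CPM in WT 2, 4, 6, 8 and 10. The lowest library was dIEC 9 and the highest WT 10, both from females, and the groups overlapped over most of their range. The log2 fold change was -0.31 (SE 0.41, edgeR unadjusted p = 0.465). It was -0.031 without dIEC 9, -0.071 without WT 10, -0.21 without dIEC 1, -0.63 without dIEC 7, -0.073 in males only and -0.67 in females only. Lrat (ENSMUSG00000028003; chromosome 3, 82892579 to 82903973, minus strand), which joins retinol to a fatty acid for storage and transport, averaged 33.7 ± 4.88 CPM in dIEC and 34.1 ± 10.1 CPM in WT (SD, n = 5 each). Its log2 fold change was -0.0079 (SE 0.17, edgeR unadjusted p = 0.965).

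Bco1 and Isx form the carotenoid step and its known brake. Bco1 (ENSMUSG00000031845; chromosome 8, 117095854 to 117133720, plus strand) encodes the enzyme that cleaves beta-carotene to retinal, and Isx (ENSMUSG00000031621; chromosome 8, 74873173 to 74893506, plus strand) encodes a homeobox factor known in mice to repress Bco1. Bco1 stood at 7.53, 10.3, 26.6, 44.1 and 7.12 CPM in dIEC 1, 3, 5, 7 and 9, against 5.65, 22.3, 18.2, 3.17 and 70.4 CPM in WT 2, 4, 6, 8 and 10. Its lowest and highest libraries were the 2 WT females, with 38 and 785 reads, a 22.2-fold range. The log2 fold change between genotypes was -0.24 (SE 0.75, edgeR unadjusted p = 0.754). It was 0.66 without WT 10 and 0.061 without dIEC 9. Isx had the smallest spread of the 10 (SD 0.18 on the log2 scale, against 1.39 for Bco1), at 210.0, 197, 179, 198 and 159.9 CPM in dIEC, against 149, 171, 158, 160 and 150.2 CPM in WT, in the same order of mice. Of the dIEC libraries 4 lay above all 5 WT libraries, and dIEC 9 lay among them. With the totals scaled by library size alone, dIEC 7 at 160.3 CPM lay among the WT libraries and dIEC 9 at 193.3 CPM above them. How many of all genes showed such a pattern was not computed. Isx averaged 189 ± 19.5 CPM in dIEC and 158 ± 9.07 CPM in WT (SD, n = 5 each), a log2 fold change of 0.26 (SE 0.12, edgeR unadjusted p = 0.0516).

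The promoters of Bco1 and Rbp2 are shown because both genes varied widely over the libraries and both carry the receptor half-site AGGTCA close to their start. The windows reach from 250 bases before to 50 bases after the start given by RefSeq on GRCm38.p6, and all 10 genes matched, with 19 windows among 32851. Capitals mark AGGTCA, which in both lies on the reverse strand and so reads TGACCT here.
Bco1, chr8:117095615-117095914, plus strand: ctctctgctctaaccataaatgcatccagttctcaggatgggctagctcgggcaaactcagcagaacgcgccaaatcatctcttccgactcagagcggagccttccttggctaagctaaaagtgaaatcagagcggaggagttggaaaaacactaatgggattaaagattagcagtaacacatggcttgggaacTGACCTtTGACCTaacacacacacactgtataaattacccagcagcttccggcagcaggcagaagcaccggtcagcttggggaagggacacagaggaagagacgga
Rbp2, chr9:98490287-98490586, plus strand: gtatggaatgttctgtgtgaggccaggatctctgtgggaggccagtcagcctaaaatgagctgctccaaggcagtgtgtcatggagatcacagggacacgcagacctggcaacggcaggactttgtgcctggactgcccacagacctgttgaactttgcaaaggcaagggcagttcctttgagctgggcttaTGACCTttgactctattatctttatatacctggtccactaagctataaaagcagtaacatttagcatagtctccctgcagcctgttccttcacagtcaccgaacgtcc
AGGTCA was searched on both strands and stood in 16.3% of all windows and in 6 of the 19, those of Bco1, Rara, Rarg, Rbp2, Rdh7 and Rxra. The repeat AGGTCANAGGTCA, which holds the half-site in both of its arms, stood in 13 windows in all (0.0396%), among them that of Bco1, at bases -56 to -44 from the start. A match describes the letters in the window and does not show binding.

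Rdh7 and Dhrs3 act on the step between retinol and retinal in opposite directions, and both overlapped between the genotypes. Rdh7 (ENSMUSG00000040134; chromosome 10, 127884028 to 127888817, minus strand), a short-chain dehydrogenase that oxidises retinol, averaged 127 ± 28.6 CPM in dIEC and 167 ± 63.1 CPM in WT (SD, n = 5 each). Its log2 fold change was -0.34 (SE 0.24, edgeR unadjusted p = 0.184). It was -0.18 without dIEC 9 and likewise without WT 8, -0.054 in males only and -0.76 in females only. Its level is uncertain to the extent that reads are shared with its close copies, among them Rdh9, since the counting program is not given in the sources used here. Dhrs3 (ENSMUSG00000066026; chromosome 4, 144892827 to 144928209, plus strand), which reduces retinal back to retinol, averaged 68.1 ± 8.20 CPM in dIEC and 68.2 ± 15.1 CPM in WT, a log2 fold change of 0.019 (SE 0.16, edgeR unadjusted p = 0.904).

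Aldh1a1 (ENSMUSG00000053279; chromosome 19, 20492715 to 20643465, plus strand) encodes a dehydrogenase that turns retinal into retinoic acid, and both its lowest and its highest levels were in females. It stood at 319, 266, 390, 227 and 199.97 CPM in dIEC 1, 3, 5, 7 and 9, against 313, 396, 268, 626 and 499 CPM in WT 2, 4, 6, 8 and 10. The 2 dIEC females were the lowest of all 10 libraries and the 2 WT females the highest, while the males of both genotypes overlapped. How many of all genes tested showed such an order was not computed, so it is a description. Female means were 213 CPM in dIEC and 563 CPM in WT, and male means 325 CPM in dIEC and 326 CPM in WT. Over both sexes the log2 fold change was -0.56 (SE 0.28, edgeR unadjusted p = 0.070), and without dIEC 9 it was -0.37. The difference of the genotype effect between the sexes was -1.40 (log2, SE 0.36, edgeR unadjusted p = 0.0032), and it did not pass adjustment over all genes. Over the alternatives run the difference lay between -1.56 and -1.19, with adjusted p-values of 0.0572 (DESeq2) to 0.99998. With 2 females per genotype, that difference rests on 4 mice. Aldh1a1 is also uncertain where reads are shared with Aldh1a7, its close copy.

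**Figure D3:**
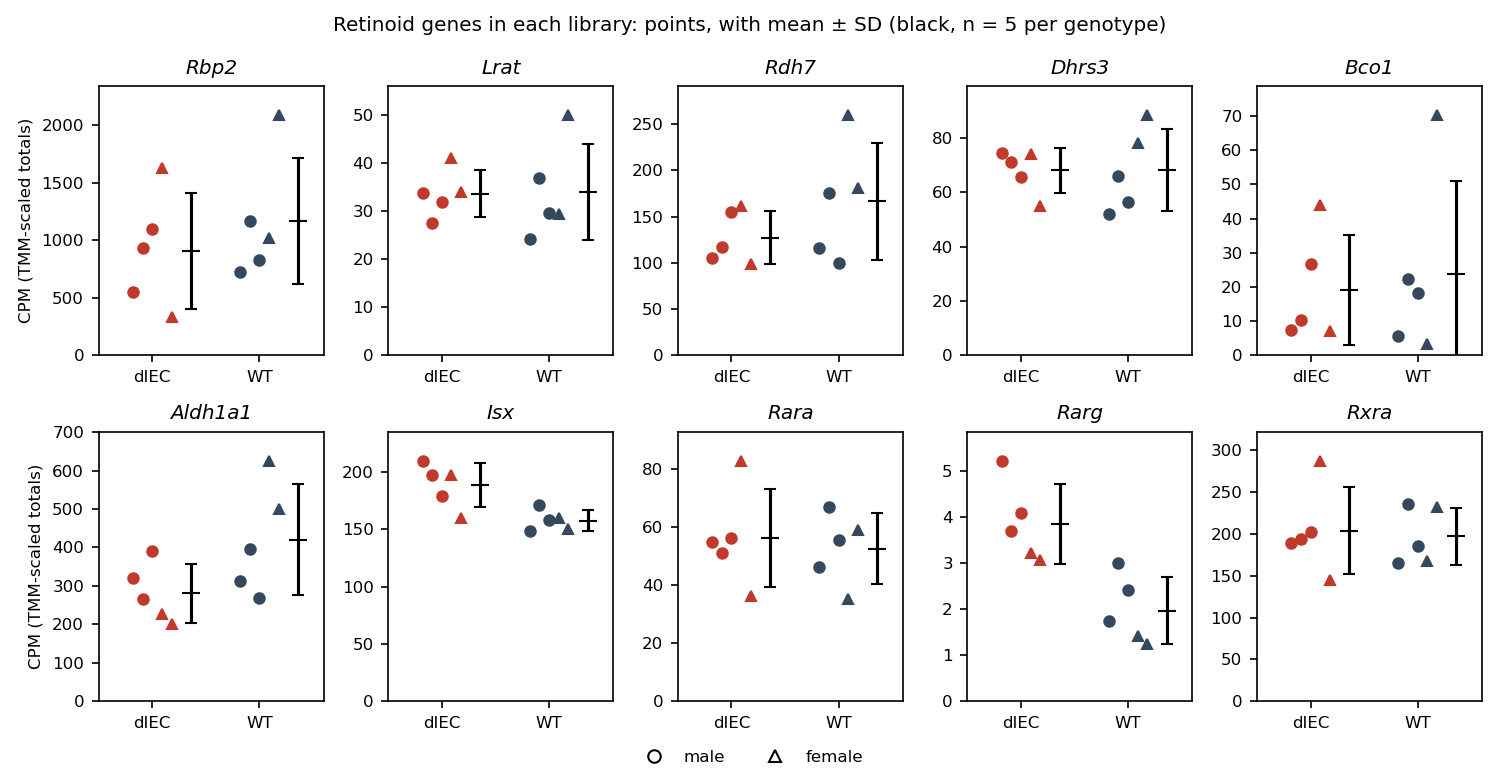
Level of each of the 10 genes in CPM (one panel per gene), one point per library, with dIEC left of WT, females and males in separate markers, and the mean with its SD (n = 5 each). The Bco1 SD bar of WT is cut at 0. Rarg is the panel in which no dIEC point falls among the WT points, and in the Aldh1a1 panel the dIEC females lie lowest and the WT females highest. The share of all genes with that order of females was not computed.

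The same 10 genes were set against sex and against the product of genotype and sex. None passed between females and males, where 0.0401% of all genes tested passed, and none for the product, where 0.00801% passed. At an unadjusted p under 0.05 there was 1 of the 10 for sex, where 4.44% of all genes tested fell, and 2 of the 10 for the product, where 2.10% fell. Between females and males, 7 of the 10 had a log2 fold change above 0 and 3 below 0, with a median of 0.16 against 0.040 over all genes tested. This median of the 10 was 0.035 without WT 10 and -0.13 with the proliferation score as a term in the fit. With all 10 libraries the log2 fold changes ran between -0.63 for Rarg (SE 0.24, edgeR unadjusted p = 0.0256) and 1.02 for Bco1 (SE 0.76, edgeR unadjusted p = 0.205). Without WT 10 the Bco1 value was -0.059, and without dIEC 7 it was 0.55. In both genotypes the Rarg levels of the 2 females lay under those of the 3 males, on 14 to 50 reads per library. The share of all genes tested with such a separation was not computed, so this order is a description. For the product the median was -0.31, against 0.041 over all genes tested, with 3 above 0 and 7 below 0. It turned direction when 1 female library was left out, at 0.095 without dIEC 9 and 0.14 without WT 10. With the proliferation score as a term it was -0.041. After Aldh1a1 the smallest unadjusted p for the product was that of Dhrs3, at -0.64 (log2, SE 0.26, edgeR unadjusted p = 0.036). Its female means were 64.6 CPM in dIEC and 83.2 CPM in WT, and its male means 70.4 CPM in dIEC and 58.1 CPM in WT.

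The rest of the pathway was followed through 5 lists of 73 genes, of which 58 were in the table and 55 passed the filter. None of the 55 passed the test in any of the 3 comparisons. Between dIEC and WT, 24 had a log2 fold change above 0 and 31 below 0, with a median of -0.039. At an unadjusted p under 0.05 there were 3 of the 55, Plb1, Adh1 and Adh4, where 2.85% of all genes tested fell, and none of these passed adjustment. Plb1, a brush-border lipase that can release retinol from its esters, averaged 1763 ± 899 CPM in dIEC and 933 ± 390 CPM in WT (SD, n = 5 each), a log2 fold change of 0.94 (SE 0.39, edgeR unadjusted p = 0.0375) that was 0.55 without dIEC 7. Adh1, an alcohol dehydrogenase that also oxidises retinol, averaged 104 ± 40.0 CPM in dIEC and 176 ± 56.5 CPM in WT, a log2 fold change of -0.75 (SE 0.30, edgeR unadjusted p = 0.0324). Adh4, of the same family, averaged 4.33 ± 0.25 CPM in dIEC and 7.51 ± 3.42 CPM in WT (edgeR unadjusted p = 0.0166).

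By step, the uptake and binding list had 7 tested genes, 3 with a log2 fold change above 0 and 4 below 0, and a median of -0.051. Cd36, which takes up fatty acids and carotenoids, averaged 68.9 ± 35.6 CPM in dIEC and 71.1 ± 29.0 CPM in WT (SD, n = 5 each), and Scarb1, a scavenger receptor for carotenoids and lipids, 2.36 ± 0.16 CPM in dIEC and 3.29 ± 2.09 CPM in WT. The list of esters and carotenoid cleavage had 9, with 3 above 0 and 6 below 0. Dgat1, which can also esterify retinol, averaged 960.0 ± 308 CPM in dIEC and 1015 ± 223 CPM in WT. The retinol and retinal oxidoreductases had 16, with 4 above 0, 12 below 0 and a median of -0.19. Among these, Rdh9 averaged 84.3 ± 29.5 CPM in dIEC and 72.2 ± 27.5 CPM in WT, and Dhrs4 57.6 ± 7.24 CPM in dIEC and 69.8 ± 13.04 CPM in WT. Of retinoic acid synthesis and breakdown, 2 of 8 genes were in the table. Aldh1a7 averaged 41.3 ± 5.75 CPM in dIEC and 55.1 ± 20.6 CPM in WT, and Cyp2s1 109 ± 11.4 CPM in dIEC and 112 ± 4.11 CPM in WT. Aldh1a2, Aldh1a3, Cyp26a1, Cyp26b1 and Cyp26c1, the other main enzymes that make or degrade retinoic acid, were not listed, nor were the receptors Rarb and Rxrg. Since every listed gene reached at least 10 counts in some library, a gene not listed is not shown to be without RNA. The receptors, partners and coregulators had 21 tested genes, with 14 above 0, 7 below 0 and a median of 0.099. In this list, the corepressor Ncor1 averaged 718 ± 246 CPM in dIEC and 666 ± 210 CPM in WT, and the vitamin D receptor gene Vdr 545 ± 97.9 CPM in dIEC and 464 ± 94.3 CPM in WT.

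Over the 10 libraries of both genotypes, levels of several of the 10 genes varied together with markers of cell maturity. Relations within 1 genotype were not tested. Each gene's log2 CPM was set against the proliferation score, the mature enterocyte score (22 brush-border and lipid-handling genes) and the proximal small intestine score (12 genes, 10 listed), which makes 30 relations over 10 libraries. All values share the scaling of their library, and the mature enterocyte and proximal lists share Lct and Slc2a2. With Benjamini-Hochberg adjustment of permutation p-values, 11 of the 30 passed. How many of all genes tested vary with these scores in this way was not computed. The count therefore does not set the 10 genes apart from others. Nor are the scores independent: dIEC 7 had the lowest proliferation score and the highest mature enterocyte score, and dIEC 9 the reverse. Rxra followed the mature enterocyte score, with r = 0.956 (permutation p = 2e-05, adjusted p = 0.0006) and rho = 1.0 (permutation p = 1e-05, the smallest that 100000 resamples can give). Without dIEC 7 and dIEC 9, the libraries farthest from the median score, r was 0.971 (adjusted p = 0.0009), and in the 6 males it was 0.974. With library size scaling it was lower, at 0.811. Against the proliferation score Rxra gave r = -0.934 (permutation p = 7e-05, adjusted p = 0.00105; rho = -0.903, permutation p = 0.00087). Without dIEC 7 and WT 10 r was -0.879, and in the 6 males -0.942. With library size scaling it was -0.792.

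Rbp2 followed all 3 scores. It gave r = 0.868 with the mature enterocyte score (permutation p = 0.00088, adjusted p = 0.00528; rho = 0.842, permutation p = 0.00381), 0.729 without dIEC 7 and dIEC 9 and 0.728 in the 6 males. With the proximal score r was 0.904 (permutation p = 0.00065, adjusted p = 0.00528; rho = 0.927, permutation p = 0.00037), 0.811 without WT 10 and dIEC 9 and 0.961 in the 6 males. With proliferation r was -0.866 (permutation p = 0.00085, adjusted p = 0.00528; rho = -0.915, permutation p = 0.00054), -0.758 without dIEC 7 and WT 10 and -0.595 in the 6 males. Rara gave r = 0.854 with the mature enterocyte score (permutation p = 0.00169, adjusted p = 0.00845; rho = 0.915, permutation p = 0.00056), 0.719 without dIEC 7 and dIEC 9 and 0.900 in the 6 males. With proliferation, Rara gave r = -0.759 (permutation p = 0.0111, adjusted p = 0.0371; rho = -0.770, permutation p = 0.0123), -0.612 without dIEC 7 and WT 10 and -0.864 in the 6 males. With library size scaling neither relation of Rara passed, at r = 0.611 with the mature enterocyte score (adjusted permutation p = 0.170) and r = -0.471 with proliferation (adjusted permutation p = 0.354).

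Bco1 gave r = 0.814 with the mature enterocyte score (permutation p = 0.00523, adjusted p = 0.0224; rho = 0.855, permutation p = 0.0031), 0.831 without dIEC 7 and dIEC 9 and 0.814 in the 6 males. Its relations with proliferation (r = -0.747, permutation p = 0.0137, adjusted p = 0.0412; rho = -0.733, permutation p = 0.0207) and with the proximal score (r = 0.737, permutation p = 0.0160, adjusted p = 0.0437; rho = 0.794, permutation p = 0.00893) also passed. Without the 2 farthest libraries these were r = -0.421 and r = 0.628, and in the 6 males -0.587 and 0.786. With library size scaling these relations of Bco1 did not pass, at r = -0.692 with proliferation (adjusted permutation p = 0.102) and r = 0.597 with the proximal score (adjusted permutation p = 0.172). Lrat gave r = -0.758 with proliferation (permutation p = 0.0105, adjusted p = 0.0371; rho = -0.649, permutation p = 0.0488), -0.439 without dIEC 7 and WT 10 and -0.822 in the 6 males. With library size scaling it did not pass, at r = -0.227 (adjusted permutation p = 0.799). Rarg gave r = 0.059 with the mature enterocyte score (permutation p = 0.871). Without the 2 farthest libraries, 1 of the 30 relations passed adjustment, that of Rxra with the mature enterocyte score, and the 10 others no longer passed with 8 libraries. Of the 11, 6 passed whichever single library was left out, and the number of the 30 that passed fell to 7 without dIEC 1, dIEC 3, dIEC 5, dIEC 7, WT 2 or WT 4. With the proliferation or the mature enterocyte score as a term in the fit, none of the 10 genes passed between dIEC and WT.

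**Figure D4:**
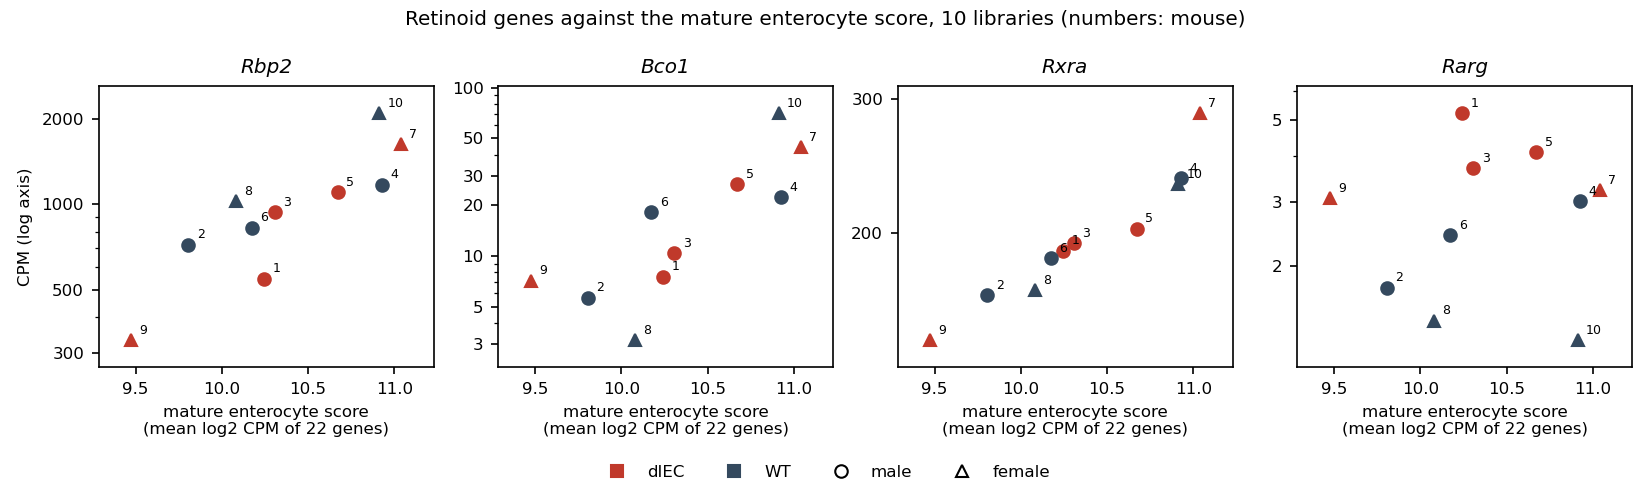
CPM (log axis) of Rbp2, Bco1, Rxra and Rarg against the mature enterocyte score (mean log2 CPM of 22 genes). Each point is 1 library, dIEC and WT in separate colours. Rxra climbs with the score over all 10 libraries (r = 0.956), and Rarg has r = 0.059.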

How the data were processed

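RNA of sorted ileal epithelial cells went into stranded libraries after ribosomal RNA removal, per the labels' protocols. The submitters' processing notes name Novoalign and mm10. How reads were assigned to genes, and whether by strand, is not given in the sources used here. The deposited table holds the authors' raw counts per gene, 1 column per mouse, and totals of 9174101 to 13484363 counts set the precision.

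The 10 genes, the lists and the tests were chosen with earlier results of these data known. filterByExpr kept 12477 of 13932 genes, all 10 members among them. edgeR 4.0.16 in R 4.3.3 gave quasi-likelihood tests with robust estimation and TMM scaling on genotype plus sex, and on their product; an adjusted p under 0.05 passed. CPM values (counts per TMM-scaled library total) were logged after adding a prior count of 2. No 2 libraries of a group were repeats (chi-square per degree of freedom 15.5 to 149). Coordinates and exon lengths come from GENCODE on GRCm38. Named genes are the 10 members, H2-Ab1, list genes past the threshold or among the 4 most abundant of their list, of which the text gives part, and for members with an SD of at least 0.5 (log2) the 3 nearest in pattern. Adh4, Bco2 and Thrb fall outside this rule and were chosen after their values were seen. The tests were tested on simulated data. Alternatives were RLE size factors, library size scaling, no filter on low counts, DESeq2 1.42.0, limma 3.58.1 voom, each sex or genotype alone, a proliferation or mature enterocyte score as a term, coding length, and leaving out each library; relations in males only and a fit without dIEC 7 and dIEC 9 were added after seeing the data.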

Additional observations from a re-analysis of the deposited data

Results flagged for a closer look

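Bco1 in WT 10 stood apart from the other WT libraries at 70.4 CPM. The next highest was WT 4 at 22.3 CPM, and the lowest was WT 8 at 3.17 CPM, so that the gap to WT 4 made up most of the range of the 5 libraries. Without WT 10 the log2 fold change of Bco1, dIEC over WT, was 0.66, against -0.24 with all 10 libraries. Of the 20 groups of 5 libraries examined, 1 stood out in this way, and the nominal rate of the rule, 1 in 20, gives about 1. That rate takes values as normal and groups as independent, which was not tested for these unlogged CPM. All 20 groups come from the same 10 libraries.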

How the results depend on the processing

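None of the 10 genes passed adjustment under any alternative for genotype, sex or their product. Rarg kept its direction under every alternative run, with log2 fold changes of 0.86 to 1.23 and adjusted p-values of 0.107 to 1.0.

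Of all genes, between dIEC and WT 2 passed in the reported fit, 4 with DESeq2, 0 in females only and 5 with the proliferation score as a term. H2-Ab1 passed in the reported fit (edgeR adjusted p = 0.00090) and did not in females only. The fit in females only could therefore miss large differences. Between females and males 5 passed, 9 with DESeq2, 9 without dIEC 7 and dIEC 9, 526 with the proliferation score and 13 with the mature enterocyte score. For the product 1 passed, 0 with library size scaling, 16 with DESeq2, 2 with limma voom, 14 with the proliferation score, 20 with the mature enterocyte score, and 0 to 1 when 1 library was left out. Of the 30 relations 11 passed, 7 with library size scaling, 3 in males only, 1 without the 2 farthest libraries, and 7 to 16 when 1 library was left out. With coding length, 6 of the 10 genes kept their rank in level.

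Several fold changes near 0 turned direction, and the cause was not tested. Lrat gave 0.017 with library size scaling, 0.023 with limma voom, 0.045 in males only, 0.044 without dIEC 7 and dIEC 9, 0.045 with the proliferation score, 0.029 with the mature enterocyte score, and -0.092 to 0.14 when 1 library was left out. Dhrs3 gave -0.0022 with genotype alone in the fit, -0.37 in females only and -0.059 to 0.14 when 1 was left out. Bco1 gave 0.042 with limma voom and -0.66 to 0.66 when 1 was left out. Rara gave -0.056 in males only, -0.057 without dIEC 7 and dIEC 9, and -0.15 to 0.22 when 1 was left out. Rxra gave -0.00074 without dIEC 7 and dIEC 9, and -0.14 to 0.17 when 1 was left out. For sex, Bco1 gave -0.15 with the proliferation score and -0.059 to 1.39 when 1 was left out. No paired analysis was run, since the labels name no pairs of mice. The mice have odd numbers in dIEC and even numbers in WT, and whether neighbours were handled together is not given. Depth limits Rarg most, with 14 to 50 reads per library.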

Other observations

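For the product of genotype and sex, 3 of the 55 tested genes of the pathway lists were at an unadjusted p under 0.05 by edgeR, where 2.10% of all genes tested fell, and none passed adjustment. Aldh1a7 averaged 36.8 CPM in dIEC females and 75.0 CPM in WT females, and its product was -1.11 (log2, SE 0.28, edgeR unadjusted p = 0.0028). Bco2, which cleaves carotenoids off centre, averaged 70.6 CPM in dIEC females and 144.5 CPM in WT females (edgeR unadjusted p = 0.0231 for the product). The third was Thrb, a thyroid hormone receptor gene (edgeR unadjusted p = 0.039).

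For the 4 members that varied most over the libraries, the genes closest in pattern were found by the root mean square difference of centred log2 CPM over 10 libraries, among 12119 genes. For Rbp2 they were 1810055G02Rik (0.21), Sec14l2 (0.22) and Efr3b (0.24). For Bco1 they were Apol9b (0.66), Rec8 (0.67) and Ace (0.67), a much looser likeness. For Aldh1a1 they were Cyp2c65 (0.18), Cyp2j9 (0.21) and St3gal6 (0.21), and for Rarg Zfp677 (0.25), Zcchc11 (0.26) and Rnf152 (0.29).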
